A study of Mus musculus with 24 samples.

Results

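Interferon-stimulated genes are the genes that cells switch on when an interferon binds its receptor at the cell surface. The 41 genes described here were taken by symbol from the 41388 genes counted in each liver library, and all 41 were found. They make up regulators of the pathway (4 genes), the ISG15 system (3), the IFIT family (3), the 2′-5′ oligoadenylate synthetase (OAS) family (5), sensors of foreign RNA (4), other antiviral effectors (12), interferon-inducible GTPases (7) and antigen presentation (3).

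Type I and type III interferons signal through the kinases Jak1 and Tyk2 to a complex that holds Stat2 and Irf9 and binds the interferon-stimulated response element (ISRE) in gene promoters. Interferon gamma signals through Jak1 and Jak2 and acts on promoters through the gamma-activated site (GAS). In liver, hepatocytes, macrophages and endothelial cells all respond to interferons, and many of the genes hold a low level without infection.

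The data were liver RNA-seq of 20 male mice on a C57BL/6J background, 5 in each of 4 groups. The Adn-Lpin1-/- mice carried floxed Lpin1 alleles and a Cre driven by the adiponectin promoter, which deletes Lpin1, the gene of the phosphatidic acid phosphatase lipin 1, in adipocytes and not in liver cells. The WT mice were littermates with the same floxed alleles and no Cre, so liver Lpin1 gives no check of the genotype labels. From 8 weeks of age the mice ate a low-fat diet (LFD, 10% of kcal from fat) or a high-fat diet (HFD, 60%), for 5 weeks by the methods and 16 weeks by the sample labels, and were fasted for 4 hours before their livers were frozen. The groups were WT LFD, Adn-Lpin1-/- LFD, WT HFD and Adn-Lpin1-/- HFD, and the comparisons were of the genotypes within a diet, of the diets within a genotype, and of the genotype effects of both diets with each other.

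Total counts per library were 36260187 to 45999456 for WT LFD, 51095146 to 61435897 for Adn-Lpin1-/- LFD, 54036184 to 62249701 for WT HFD and 57550362 to 81072794 for Adn-Lpin1-/- HFD. Every WT LFD library was thus smaller than every other library. Of the 13052 genes that passed the limit on low counts and were tested, all 41 interferon-stimulated genes were among them, and the lowest count of any of them in a single mouse was 41 reads. Levels are given as CPM, the count of a gene scaled to the effective library size of edgeR. A gene was called when its p from the quasi-likelihood test of edgeR, adjusted by Benjamini-Hochberg over all genes tested, was at or below 0.05. The hepatocyte genes Alb, Apoa1, Serpina1a and others marked the tissue as liver, with a summed level of at least 74564 CPM over 6 hepatocyte markers in every mouse.

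Promoters with and without a motif are shown for the OAS and Bst2 genes, which carry most of the called differences, and for Isg15, a standard reporter of the pathway that was not called. The windows are the 250 bases before the transcription start in RefSeq on GRCm38.p6, read 5′ to 3′ on the strand of the gene. Oas1a lies at chr5:120907526-120907775, Oas3 at chr5:120777660-120777909, Bst2 at chr8:71537473-71537722 and Isg15 at chr4:156200819-156201068, all on the minus strand, and Oasl2 at chr5:114896684-114896933 on the plus strand. Capitals mark each match to the ISRE core (GAAA, any 2 bases, GAAA) or the GAS core (TTC, any 3 bases, GAA), searched on both strands, and overlapping matches run together.
Oas1a: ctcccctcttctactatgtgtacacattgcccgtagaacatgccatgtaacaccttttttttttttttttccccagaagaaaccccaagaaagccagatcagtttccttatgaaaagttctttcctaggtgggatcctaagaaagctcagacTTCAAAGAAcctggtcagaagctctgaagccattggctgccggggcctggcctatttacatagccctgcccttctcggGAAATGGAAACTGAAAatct
Oas3: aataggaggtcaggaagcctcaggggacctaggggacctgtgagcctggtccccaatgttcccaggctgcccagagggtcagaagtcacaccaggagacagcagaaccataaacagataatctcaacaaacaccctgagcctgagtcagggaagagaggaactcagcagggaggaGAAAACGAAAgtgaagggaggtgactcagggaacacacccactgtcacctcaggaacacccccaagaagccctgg
Oasl2: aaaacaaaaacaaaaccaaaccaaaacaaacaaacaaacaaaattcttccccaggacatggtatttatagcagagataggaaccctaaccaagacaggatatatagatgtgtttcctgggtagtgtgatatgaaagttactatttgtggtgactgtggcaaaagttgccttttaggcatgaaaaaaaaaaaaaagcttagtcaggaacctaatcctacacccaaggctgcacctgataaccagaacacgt
Bst2: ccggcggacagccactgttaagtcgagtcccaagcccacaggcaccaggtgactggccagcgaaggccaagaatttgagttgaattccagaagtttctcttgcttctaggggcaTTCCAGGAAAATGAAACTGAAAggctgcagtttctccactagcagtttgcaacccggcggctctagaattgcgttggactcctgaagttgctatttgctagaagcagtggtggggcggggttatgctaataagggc
Isg15: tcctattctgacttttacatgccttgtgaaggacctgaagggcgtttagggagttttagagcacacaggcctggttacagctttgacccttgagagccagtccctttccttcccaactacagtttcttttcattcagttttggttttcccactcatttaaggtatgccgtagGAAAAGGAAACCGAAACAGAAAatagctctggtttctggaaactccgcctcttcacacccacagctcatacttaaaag

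The Oas1a window held a pair of overlapping ISRE cores whose last base was at position -5 from the start site, with a GAS core further upstream. In the Bst2 window the GAS core overlapped an ISRE core. Entries were found for 31 of the 41 genes, and no entry was used for Usp18, Oas2, Dhx58, Mx1, Mx2, Zbp1, Parp14, Rtp4, Iigp1 and F830016B08Rik. An ISRE core stood in 15 of the 31 genes (48.4%), against 3.46% of 27025 genes with a window, and a GAS core in 7 of the 31 (22.6%), against 8.13%. The 15 were Bst2, Ddx60, Gbp2, Gbp3, Gbp7, Ifit1, Ifit3, Igtp, Irgm1, Isg15, Oas1a, Oas3, Rsad2, Stat2 and Trim30a. Oasl2 had neither core in this window and was called on both diets, while Isg15 had 3 overlapping ISRE cores and was called in no comparison.

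Per kb of exon, Bst2 was the most abundant of the 41 genes, at a mean level of 152 CPM per kb over the 20 mice, followed by Iigp1 at 79.0 and Igtp at 19.99. The lowest levels were those of Oas3 at 0.386, Ddx60 at 0.454 and Mx1 at 0.468 CPM per kb. The median over the 41 genes was 3.67 CPM per kb and that over all genes tested was 3.79, so as a group these genes were neither rare nor abundant in liver. Of the other OAS genes, Oasl2 at 1.81, Oas1a at 1.51 and Oas2 at 1.22 CPM per kb lay below both medians and Oasl1 at 4.80 CPM per kb above them.

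One mouse stood apart. Mouse 2 of the Adn-Lpin1-/- HFD group had the highest level of its group in 34 of the 41 genes (82.9%), against 19.3% of all genes tested. The median ratio of its level to the median of the other 4 mice was 1.71 over the 41 genes and 0.996 over all genes tested, and 26 of the 41 genes were at least 1.5 times as high, against 6.14% of all genes. The ratio was highest for Igtp, at 126 CPM in mouse 2 and 26.8 to 50.0 CPM in the others, and for Gbp3, at 24.4 against 6.84 to 9.72 CPM. By role, its median ratio was 2.14 for antigen presentation, 2.03 for the GTPases, 1.69 for the OAS family and 1.23 for the RNA sensors. F830016B08Rik went the other way, at 5.99 CPM in mouse 2 and a median of 9.28 CPM in the others. Mouse 2 also had the highest summed level of 8 macrophage markers, 430 CPM against 186 to 284 CPM in the other 4 mice, and of 7 monocyte and neutrophil markers, 11.3 CPM against 5.09 to 7.41 CPM. Their part in its levels of interferon-stimulated genes was not tested, and results on the HFD that rest on this mouse are given with and without it.

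**Figure D1:**
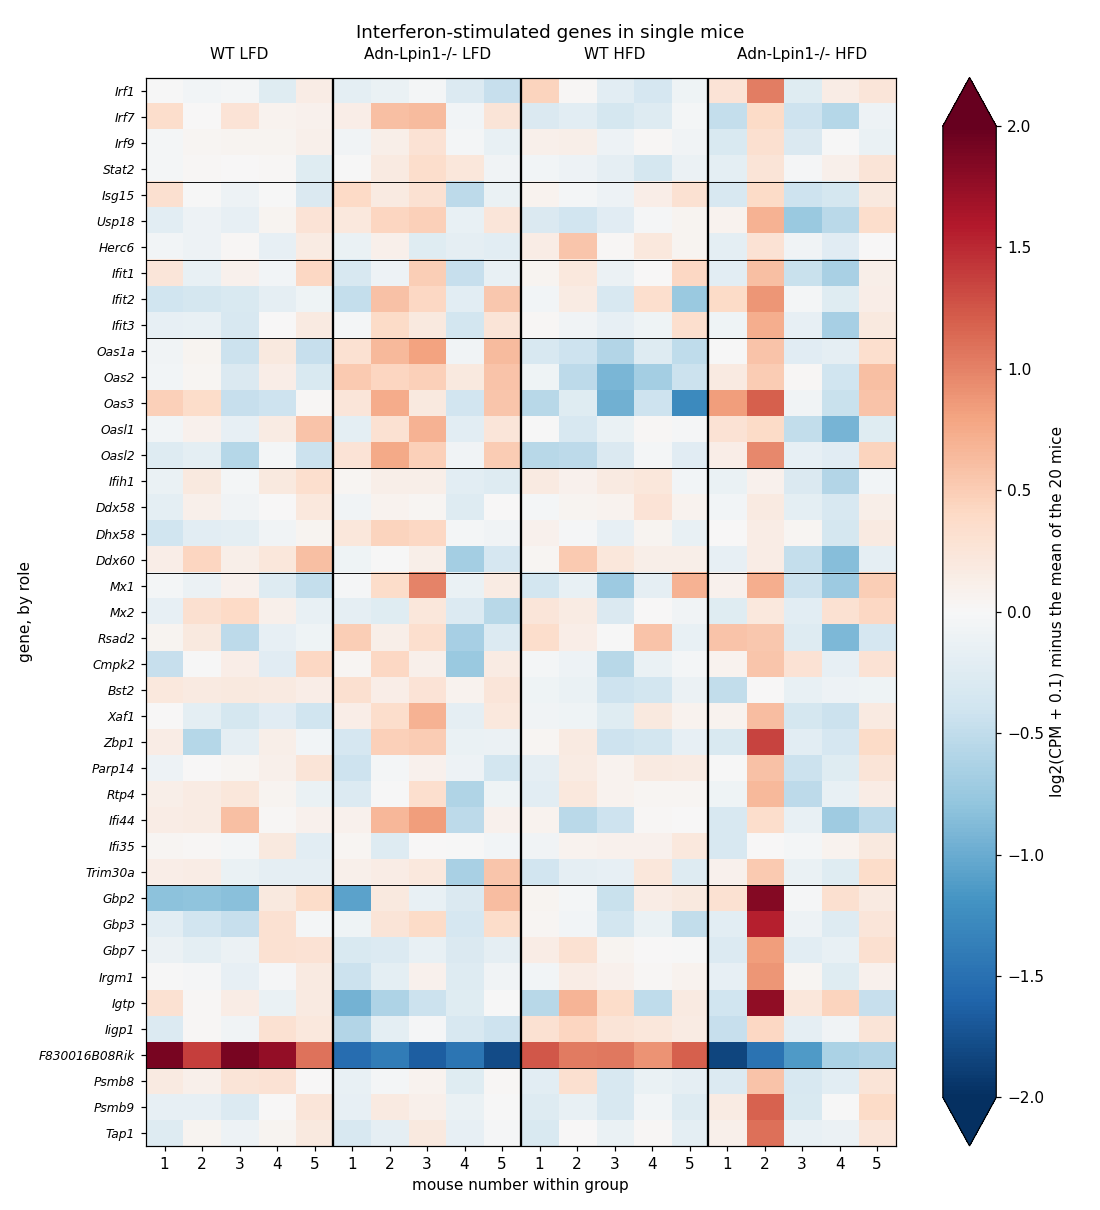
Level of each of the 41 genes (rows, by role) in each of the 20 mice (columns, by group), as log2(CPM + 0.1) minus the mean of the 20 mice, with red above and blue below that mean. Mouse 2 of the Adn-Lpin1-/- HFD group forms a red column through most roles, and F830016B08Rik forms the only row that changes color with genotype in every mouse.

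On the LFD, Adn-Lpin1-/- livers had higher levels of Oas1a, Oas2, Oasl2 and Dhx58 and a much lower level of F830016B08Rik than WT livers. These were 5 called genes of 41 (12.2%), against 14.4% of all genes tested, with 4 higher (9.76% against 6.27%) and 1 lower (2.44% against 8.11%). On the HFD, Oas1a, Oas2, Oas3, Oasl2 and Psmb9 were higher and F830016B08Rik was again lower, 6 called genes of 41 (14.6%) against 18.6% of all genes, with 5 higher (12.2% against 9.87%) and 1 lower (2.44% against 8.78%). In the main analysis the shares of called genes thus lay near or below those of all genes on both diets. The median log2 fold change of the 41 genes was 0.05 in LFD-fed mice and 0.09 in HFD-fed mice, and that of all genes was 0.01 and 0.00. Values of WT and Adn-Lpin1-/- mice did not overlap for 3 of the 41 genes on the LFD (7.32%, against 10.1% of all genes), which were Oas2, Ddx60 and F830016B08Rik, and for 2 on the HFD (4.88%, against 11.4%), Oas1a and F830016B08Rik.

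**Figure D2:**
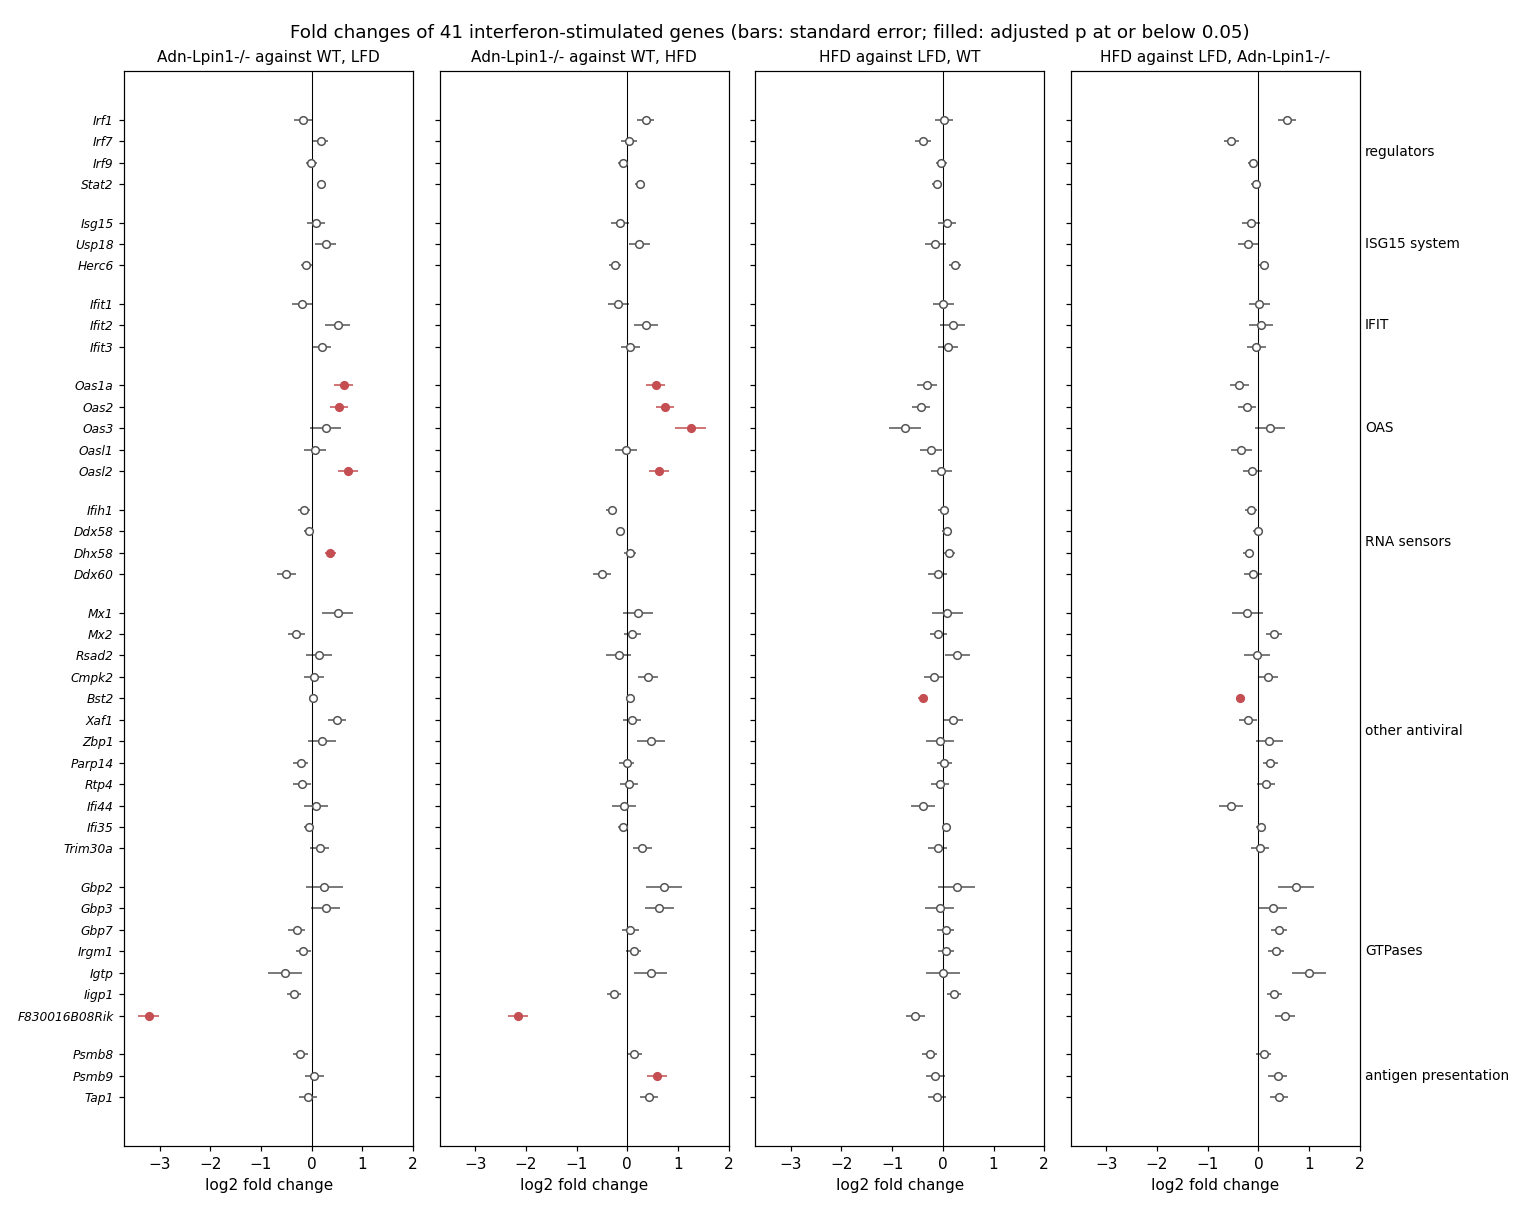
Log2 fold change (horizontal axis) of each of the 41 genes, by role, in the genotype comparison on each diet and the diet comparison in each genotype, with bars for the standard error and filled points for called genes. The filled points are 4 of the 5 OAS genes, Dhx58, Psmb9, Bst2 and F830016B08Rik, the last at -3.22 in LFD-fed mice and -2.16 in HFD-fed mice.

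The regulators and the ISG15 system held no called gene in any comparison. Irf1 and Irf7 are transcription factors that interferons induce, and Irf9 and Stat2 are parts of the factor that binds the ISRE. Their log2 fold changes with genotype lay between -0.18 and 0.19 in LFD-fed mice and between -0.08 and 0.36 in HFD-fed mice. Stat2 on the HFD came nearest to a call, at 77.3 CPM in Adn-Lpin1-/- and 64.9 CPM in WT mice (log2 fold change 0.25 ± 0.09 SE, edgeR adjusted p = 0.063). Isg15 encodes a ubiquitin-like modifier, Usp18 removes it from proteins and dampens receptor signaling, and Herc6 is the ligase that attaches it in mice. Isg15 was at 6.94 ± 1.10, 7.36 ± 1.78, 7.35 ± 0.850 and 6.62 ± 1.77 CPM (mean ± SD, n = 5) in WT LFD, Adn-Lpin1-/- LFD, WT HFD and Adn-Lpin1-/- HFD, group means closer to each other than the mice within a group.

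The IFIT proteins bind foreign RNA and hinder its translation, and none of Ifit1, Ifit2 and Ifit3 was called. Ifit1 averaged 9.48 CPM for WT LFD, 8.33 for Adn-Lpin1-/- LFD, 9.51 for WT HFD and 8.43 CPM for Adn-Lpin1-/- HFD. Ifit2 had the largest fold change of them, 0.51 ± 0.25 (SE) on the log2 scale on the LFD, with an edgeR adjusted p of 0.18.

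The OAS family held most of the genes called with genotype. Its enzymes make 2′-5′ oligoadenylates on double-stranded RNA, which activate the RNA-degrading enzyme RNase L, whereas the OAS-like proteins Oasl1 and Oasl2 act at least in part in other ways. The genes lie in a pair of clusters on chromosome 5 (GRCm38), where Oas2 spans 120730333 to 120749853, Oas3 120753098 to 120777661 and Oas1a 120896256 to 120907521 on the minus strand, and Oasl2 114896936 to 114912234 and Oasl1 114923240 to 114937915 on the plus strand. All are annotated as protein coding. On the LFD 3 of the 5 genes were called higher in Adn-Lpin1-/- mice (against 6.27% of all genes), and on the HFD 4 of the 5 (against 9.87%). None of the OAS genes was called on the LFD when mouse 3 of WT LFD or mouse 2 of Adn-Lpin1-/- LFD was left out, and Oasl2 alone was called without mouse 5 of WT LFD and without mouse 3 or 5 of Adn-Lpin1-/- LFD. On the HFD, Oas2 and Oas3 alone were called when mouse 2 or 5 of Adn-Lpin1-/- HFD was left out, and likewise for mice 1, 2, 3 and 5 of WT HFD. Mouse Oas1 genes have near-identical copies, so the share of reads counted on Oas1a is uncertain.

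In WT LFD mice 1 to 5, Oas2 was at 4.97, 5.31, 4.23, 5.68 and 4.19 CPM. In Adn-Lpin1-/- LFD mice it was at 7.48, 6.98, 7.27, 5.96 and 7.77 CPM. All 5 knockout mice lay above all 5 WT mice, 1.45-fold higher by the fit (log2 fold change 0.54 ± 0.17 SE, edgeR adjusted p = 0.041, two-sided exact permutation p = 0.0079, the smallest that 5 against 5 mice can give). The LFD call was lost with any 1 of 8 mice left out, all but mouse 4 of each LFD group (adjusted p up to 0.10), with no limit on low counts (0.057) and with the GC trend removed (0.054). On the HFD, Oas2 was at 4.85, 3.57, 2.71, 3.18 and 3.82 CPM in WT mice. It was at 5.86, 7.43, 5.26, 3.88 and 7.89 CPM in Adn-Lpin1-/- HFD mice. Mouse 4 of the knockout group fell within the WT range and the other 4 lay above it, a 1.67-fold difference (log2 0.74 ± 0.17, edgeR adjusted p = 0.0067). The call of Oas2 on the HFD held in each of 9 alternative analyses and with each of the 20 mice left out, and without mouse 2 the log2 fold change was 0.66.

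Oasl2 was at 5.61, 5.87, 4.50, 6.54 and 4.96 CPM in WT LFD mice. It was at 8.16, 11.5, 9.34, 6.36 and 9.61 CPM in Adn-Lpin1-/- LFD mice. Mouse 4 of the latter fell just below the highest WT mouse and the rest lay above the WT range (log2 fold change 0.71 ± 0.20, edgeR adjusted p = 0.023). The LFD call was lost without mouse 3 of WT LFD (adjusted p = 0.065) and without mouse 2 of Adn-Lpin1-/- LFD (adjusted p = 0.070). On the HFD, Oasl2 was at 4.54, 4.64, 5.50, 6.56 and 5.70 CPM in WT mice. It was at 7.36, 13.2, 6.003, 5.70 and 9.20 CPM in Adn-Lpin1-/- mice, where mice 3 and 4 overlapped with WT and mouse 2 was far above. The HFD log2 fold change was 0.62 ± 0.20 (edgeR adjusted p = 0.035) and 0.39 without mouse 2 (adjusted p = 0.14), which ended the call. So did leaving out mouse 5 of Adn-Lpin1-/- HFD or mouse 1, 2, 3 or 5 of WT HFD. The call also ended in a fit of only the HFD groups (adjusted p = 0.073) and with a block for replicate number.

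Oas1a was at 2.60, 2.83, 1.995, 3.13 and 1.95 CPM in WT LFD mice. It was at 3.37, 4.34, 4.83, 2.60 and 4.26 CPM in Adn-Lpin1-/- LFD mice, with mouse 4 inside the WT range and the other 4 above it (log2 fold change 0.63 ± 0.19, edgeR adjusted p = 0.030). On the HFD it was at 2.17, 2.02, 1.78, 2.25 and 1.88 CPM in WT mice. It was at 2.70, 4.09, 2.31, 2.40 and 3.45 CPM in Adn-Lpin1-/- HFD mice, where the lowest knockout mouse was just above the highest WT mouse (log2 fold change 0.57 ± 0.19, edgeR adjusted p = 0.042). Without mouse 2 the HFD change was 0.43 (adjusted p = 0.14), and 6 of the 9 alternative analyses also ended that call, as did leaving out mouse 1 or 5 of Adn-Lpin1-/- HFD, any WT HFD mouse or mouse 1 of WT LFD. The LFD call ended without any one of mice 3 and 5 of WT LFD and mice 2, 3 and 5 of Adn-Lpin1-/- LFD, with adjusted p up to 0.085, and in a fit of only the LFD groups (0.056).

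Oas3 differed by genotype on the HFD. It was at 1.22, 1.53, 0.899, 1.35 and 0.702 CPM in WT HFD mice. It was at 3.36, 4.35, 1.74, 1.33 and 2.77 CPM in Adn-Lpin1-/- HFD mice. Mouse 4 of the knockout group lay within the WT range, and mice 1, 2 and 5 lay well above it, a 2.38-fold difference (log2 1.25 ± 0.31, edgeR adjusted p = 0.0095) that held in all 9 alternatives and with each of the 20 mice left out (1.01 without mouse 2). On the LFD, Oas3 was at 2.60, 2.38, 1.31, 1.35 and 1.87 CPM in WT mice. It was at 2.18, 3.14, 2.12, 1.38 and 2.75 CPM in Adn-Lpin1-/- LFD mice, and the groups overlapped (log2 0.28 ± 0.31, edgeR adjusted p = 0.58). The difference between the diets was 0.97 ± 0.43 on the log2 scale (edgeR adjusted p = 0.67), so the genotype effect was not shown to differ between them. Oasl1 did not pass the test on either diet, with log2 fold changes of 0.07 in LFD-fed mice and -0.03 in HFD-fed mice.

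**Figure D3:**
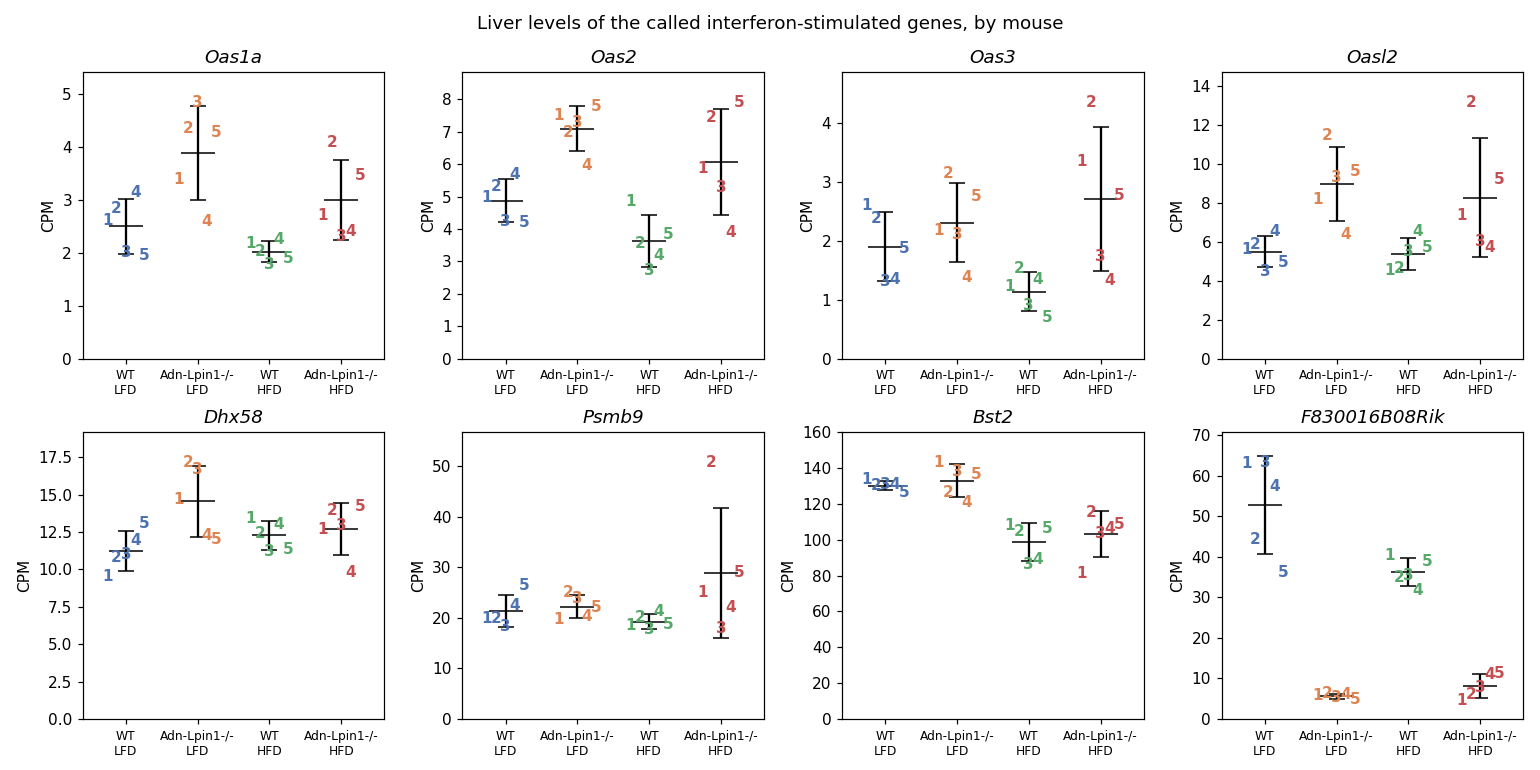
Level in CPM (vertical axis, from 0) of the 8 called genes in each mouse of the 4 groups, each digit being the number of a mouse within its group, with the group mean and SD as a bar. F830016B08Rik separates the genotypes on both diets and Bst2 separates the diets in both genotypes, while the OAS genes and Psmb9 show mouse 2 of Adn-Lpin1-/- HFD at or near the top.

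Among the sensors of foreign RNA, Dhx58 rose with genotype on the LFD. Ddx58 (RIG-I) and Ifih1 (MDA5) start the antiviral signal, Dhx58 (LGP2) modulates both, and Ddx60 is a related helicase. Dhx58 was at 9.50, 10.8, 10.99, 11.96 and 13.04 CPM in WT LFD mice. It was at 14.7, 17.1, 16.7, 12.3 and 11.998 CPM in Adn-Lpin1-/- LFD mice. Mice 1, 2 and 3 of the knockout group lay above the WT range and mice 4 and 5 inside it (log2 fold change 0.37 ± 0.12, edgeR adjusted p = 0.038). That call was lost in 4 of 9 alternatives and in 7 of the 20 fits with a mouse left out (adjusted p up to 0.11), the mice being 1 to 4 of WT LFD and 1 to 3 of Adn-Lpin1-/- LFD. On the HFD the groups were at 13.4, 12.4, 11.2, 12.99 and 11.4 CPM in WT and 12.6, 13.9, 12.97, 9.82 and 14.2 CPM in Adn-Lpin1-/- mice, with a log2 fold change of 0.05.

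Ddx60 lay lower in Adn-Lpin1-/- mice without a call, at 3.35, 4.16, 3.34, 3.57 and 4.68 CPM in WT LFD and 2.88, 3.05, 3.33, 1.86 and 2.39 CPM in Adn-Lpin1-/- LFD mice. The groups did not overlap, with the nearest mice at 3.34 and 3.33 CPM (log2 fold change -0.50 ± 0.18, edgeR adjusted p = 0.074). On the HFD its log2 fold change was also -0.50 (adjusted p = 0.060), and without mouse 2 of Adn-Lpin1-/- HFD it was -0.63 and passed (adjusted p = 0.032). Ifih1 on the HFD did likewise, at -0.31 with all mice (adjusted p = 0.063) and -0.38 without mouse 2 (adjusted p = 0.039).

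None of the 12 other antiviral genes was called with genotype on either diet. These include Mx1 and Mx2, dynamin-like GTPases that block viral particles, Rsad2 (viperin) and its neighbor Cmpk2, which make antiviral nucleotides, and Zbp1, a sensor of Z-form nucleic acid that can start cell death. Mx1 carries a deletion in most laboratory strains, and the annotation lists Mx2 as a polymorphic pseudogene. Log2 fold changes of the 12 ran from -0.31 to 0.51 in LFD-fed mice and from -0.17 to 0.47 in HFD-fed mice, with medians of 0.07 on both diets. Xaf1, a promoter of cell death, was the nearest to a call, at 5.65 CPM in WT LFD and 8.00 CPM in Adn-Lpin1-/- LFD mice (0.50 ± 0.18, edgeR adjusted p = 0.066).

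Among the GTPases, which attack the vacuoles of intracellular pathogens, F830016B08Rik showed by far the largest difference of the 41 genes. The paper, on the same livers, already lists this gene among those lowered in knockout mice on both diets. The 41 genes were chosen with earlier results known, so its rank among them is not independent evidence. F830016B08Rik is an uncharacterized member of the immunity-related GTPase family (ENSMUSG00000090942) and is protein coding. It lies on chromosome 18 from 60293380 to 60303016 on the plus strand of GRCm38, near Iigp1 at 60376029 to 60392627. In WT LFD mice it was at 62.9, 44.2, 63.1, 57.3 and 36.1 CPM. In Adn-Lpin1-/- LFD mice it was at 5.78, 6.32, 5.29, 6.09 and 4.79 CPM. The ranges lay far apart, with the lowest WT mouse at more than 5 times the highest knockout mouse, and the fitted difference was 9.33-fold (log2 -3.22 ± 0.21, edgeR adjusted p = 5.9e-09). In WT HFD mice it was at 40.3, 34.9, 35.3, 31.7 and 38.8 CPM. In Adn-Lpin1-/- HFD mice it was at 4.67, 5.99, 7.67, 10.9 and 11.2 CPM, and the ranges were again apart, 4.47-fold (log2 -2.16 ± 0.20, edgeR adjusted p = 1.5e-06).

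F830016B08Rik kept its call on both diets in all 9 alternatives and with each of the 20 mice left out. Its log2 fold change stayed between -3.33 and -3.07 in LFD-fed mice and between -2.31 and -2.02 in HFD-fed mice. The genotype difference was smaller on the HFD by 1.06 ± 0.27 on the log2 scale (edgeR adjusted p = 0.38), which passed in DESeq2 alone (adjusted p = 0.049). Iigp1, its neighbor, lay lower in Adn-Lpin1-/- mice without a call, at 251 ± 39.6 CPM in WT LFD and 197 ± 29.6 CPM in Adn-Lpin1-/- LFD mice (log2 -0.35 ± 0.14, adjusted p = 0.10), and at 293 ± 20.3 and 245 ± 58.7 CPM on the HFD (-0.26 ± 0.14, adjusted p = 0.21). Genes of this family share sequence and only uniquely aligned reads were counted, so how many reads their counts lack is uncertain.

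The other GTPases (Gbp2, Gbp3, Gbp7, Irgm1 and Igtp) were not called. Their HFD fold changes, from 0.06 to 0.72 on the log2 scale, rested in part on mouse 2 of Adn-Lpin1-/- HFD. Gbp2 was at 0.72 on the log2 scale with it and 0.20 without it, Gbp3 at 0.63 and 0.12, and Igtp at 0.46 and -0.11. Gbp genes are also close in sequence, so their counts may lack reads that fit more than 1 copy.

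Psmb8 and Psmb9 are catalytic subunits of the immunoproteasome and Tap1 carries peptides to MHC class I. Psmb9 was called higher in Adn-Lpin1-/- mice on the HFD. It was at 18.5, 20.1, 17.7, 21.3 and 18.6 CPM in WT HFD mice. It was at 24.9, 50.7, 17.9, 22.1 and 28.95 CPM in Adn-Lpin1-/- HFD mice. Mouse 2 was at more than 1.5 times the next highest mouse and mouse 3 lay inside the WT range (log2 fold change 0.59 ± 0.19, edgeR adjusted p = 0.037, two-sided exact permutation p = 0.056). Without mouse 2 the change was 0.29 (edgeR adjusted p = 0.13). The call also ended without mouse 5 of the same group and without mouse 1, 2, 3 or 5 of WT HFD, in a fit of only the HFD groups (adjusted p = 0.099) and with the GC trend removed (0.069). On the LFD Psmb9 was at 21.4 ± 3.15 CPM in WT and 22.2 ± 2.29 CPM in Adn-Lpin1-/- mice. Tap1 and Psmb8 were not called, and Tap1 on the HFD was at 0.43 on the log2 scale with mouse 2 (adjusted p = 0.092) and 0.15 without it.

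Leaving out mouse 2 of Adn-Lpin1-/- HFD moved the median log2 fold change of the 41 genes on the HFD from 0.09 to -0.09. The called genes were then Oas2, Oas3, F830016B08Rik, Ifih1 and Ddx60, 5 of 41, with 11.3% of all genes called.

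Diet changed Bst2 in both genotypes. Bst2 (tetherin) holds budding virus particles at the cell surface and is protein coding on chromosome 8 from 71534264 to 71537437 on the minus strand. It was at 133, 130, 131, 131 and 126 CPM in WT LFD mice. It was at 108, 105, 86.2, 88.9 and 106 CPM in WT HFD mice. All HFD mice lay below all LFD mice (log2 fold change -0.40 ± 0.08, edgeR adjusted p = 0.022). In Adn-Lpin1-/- mice it was at 143, 126, 138, 121 and 136 CPM on the LFD. It was at 81.2, 115, 104, 107 and 109 CPM on the HFD, again with no overlap (-0.37 ± 0.08, edgeR adjusted p = 0.024). The WT call ended without any one of mice 1, 2 and 4 of WT LFD and mice 3 and 4 of WT HFD (up to 0.079). It also ended with a block for replicate number. The Adn-Lpin1-/- call ended without mouse 3 of Adn-Lpin1-/- LFD (0.067) and in a fit of only the Adn-Lpin1-/- groups (0.084).

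Bst2 was the 1 called gene of 41 (2.44%) in each genotype. In WT mice 1.1% of all genes were called and 0.674% were called lower, and in Adn-Lpin1-/- mice 2.46% and 1.26%. Values of LFD and HFD mice did not overlap for 2 of the 41 genes in WT mice (4.88%, against 3.73% of all genes), Bst2 and Irf7, and for 1 in Adn-Lpin1-/- mice (2.44%, against 4.06%), Bst2. Irf7 was at 48.0 to 61.0 CPM in WT LFD and 37.3 to 46.4 CPM in WT HFD mice (log2 -0.39 ± 0.16, edgeR adjusted p = 0.22). In Adn-Lpin1-/- mice the log2 fold change of Irf7 with diet was -0.53 ± 0.16, with overlap (edgeR adjusted p = 0.079). The median log2 fold change of the 41 genes with diet was -0.03 in WT and 0.03 in Adn-Lpin1-/- mice, and -0.16 in the latter without mouse 2 of Adn-Lpin1-/- HFD. With all mice, all 7 GTPases were above 0 in Adn-Lpin1-/- mice, from 0.29 to 0.99, with none called. Without mouse 2 of Adn-Lpin1-/- HFD the 7 ran from -0.21 for Gbp3 to 0.61 for F830016B08Rik, Igtp was at 0.42 and Gbp2 at 0.24, and none was called.

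No gene of the 41 was called when the genotype effects of both diets were compared, and edgeR called 0% of all genes tested. At an unadjusted p below 0.05 there were 4 of the 41 genes (9.76%), which were Irf1, Oas3, Igtp and F830016B08Rik, against 938 genes in all (7.19%), and DESeq2 called 30 genes in all with F830016B08Rik among them.

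The rest of the pathway was counted from lists by function, and the counts stand against 14.4% of all genes called with genotype on the LFD, 18.6% on the HFD and 11.3% on the HFD without mouse 2 of Adn-Lpin1-/- HFD. None of 20 interferon genes reached the limit on low counts, and 13 of them had 0 reads in all 20 libraries. The most abundant, Ifnk, had 38 reads in all, and Ifng had 22 and Ifnb1 2. At these counts no comparison of the ligands was made. Of 5 interferon receptor genes tested, Ifnar2 was called lower in Adn-Lpin1-/- mice on the HFD (log2 fold change -0.23 ± 0.08, edgeR adjusted p = 0.048) and none on the LFD, while Ifnar1, the most abundant, was at -0.07 and -0.12.

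Of 4 kinases and STATs tested, Tyk2 was called higher on the HFD (0.20 ± 0.07, edgeR adjusted p = 0.040), but not without mouse 2 of Adn-Lpin1-/- HFD. Of 5 further IRFs tested, Irf5, a factor of inflammatory signaling in myeloid cells, was called lower on the LFD, at 17.2 CPM in WT and 8.79 CPM in Adn-Lpin1-/- mice with no overlap (-0.97 ± 0.22, edgeR adjusted p = 0.0068). Of 9 inhibitors tested, Ptpn6, a phosphatase that acts on the kinases, was called higher on the LFD at 0.20.

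Of 12 genes of nucleic acid sensing tested, 0 were called in LFD-fed mice and 4 were called higher in HFD-fed mice, while the share of all genes called higher was 6.27% and 9.87%. These were Tmem173 (STING, 0.85 ± 0.20), Tlr7 (0.90 ± 0.30), Traf3 (0.47 ± 0.12) and Ikbke (0.38 ± 0.12). Without mouse 2 of Adn-Lpin1-/- HFD, Tmem173 and Traf3 were the 2 still called (16.7%, against 11.3% of all genes). Mavs, the adaptor of the RNA sensors and the most abundant of the list, was at -0.02 in LFD-fed mice and -0.09 in HFD-fed mice.

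Of 70 further interferon-stimulated genes tested, 4 were called on the LFD (5.71%, against 14.4% of all genes), all higher, and 15 on the HFD (21.4%, against 18.6%), 14 of them higher. Sp100, a nuclear body protein, Tor3a and Slfn5 were called on both diets, with log2 fold changes of 0.47, 1.06 and 0.63 in LFD-fed mice and 0.57, 0.70 and 0.68 in HFD-fed mice. Tor3a was at 4.97, 4.43, 4.85, 5.45 and 5.57 CPM in WT LFD and 6.69, 11.8, 12.8, 12.6 and 8.65 CPM in Adn-Lpin1-/- LFD mice, without overlap. On the HFD the called genes included the MHC regulators Ciita (1.34 ± 0.36) and Nlrc5 (0.50 ± 0.13), the MHC class I gene H2-D1 (0.35 ± 0.11), Cd274 (PD-L1, 1.22 ± 0.37), the chemokine Cxcl10 (1.13 ± 0.37), Samhd1 (0.50 ± 0.13) and Gbp4 (1.07 ± 0.27). Mouse 2 of Adn-Lpin1-/- HFD was again far above its group, with Ciita at 5.70 CPM against 1.11 to 1.77 CPM and Cd274 at 10.6 against 1.83 to 4.35 CPM. Ifitm2 was called lower on the HFD (-0.30 ± 0.10). Without mouse 2, 7 of the 70 genes were called on the HFD (10%, against 11.3% of all genes), all higher (Gbp4, Nlrc5, Samhd1, Sp100, Uba7, Phf11d and Slfn5), and the median of the list was 0.03. The median log2 fold change of the 70 genes was 0.00 in LFD-fed mice and 0.12 in HFD-fed mice, and no gene of this list was called with diet.

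Markers of liver cell types moved with genotype too. Of 8 macrophage markers, 0 were called in LFD-fed mice and 6 were called higher in HFD-fed mice (Clec4f, Cd68, Timd4, Csf1r, Cd5l and Vsig4, from 0.63 to 0.99 on the log2 scale), while 6.27% and 9.87% of all genes were called higher in the same order. Their summed level was 168 ± 42.1 CPM (SD, n = 5) for WT LFD, 197 ± 56.3 for Adn-Lpin1-/- LFD, 160 ± 15.8 for WT HFD and 274 ± 99.2 CPM for Adn-Lpin1-/- HFD, with Clec4f, a marker of Kupffer cells, as the most abundant in each group. Of 6 markers of sinusoidal endothelium, 2 were called higher in LFD-fed mice and 4 in HFD-fed mice, with sums of 99.02 ± 19.6, 131 ± 36.7, 103 ± 16.9 and 149 ± 7.91 CPM in the same order of groups and Stab2 as the most abundant. Of 5 stellate cell markers 2 were called higher in LFD-fed mice and 1 in HFD-fed mice. Of 6 hepatocyte markers 1 was called lower in LFD-fed mice and 4 in HFD-fed mice, while 8.11% and 8.78% of all genes were called lower. With mouse 2 of Adn-Lpin1-/- HFD left out, the called markers of these cell types on the HFD were Cd68 and Csf1r of the macrophage list, Stab2 of the endothelial list and, lower, Apoa1 of the hepatocyte list, with 11.3% of all genes called. With all mice, median log2 fold changes on the HFD were 0.79 for macrophage, 0.57 for endothelial, 0.17 for stellate and -0.38 for hepatocyte markers. Without mouse 2 they were 0.55, 0.56, 0.13 and -0.35 in the same order. In bulk tissue, more cells of a type and more RNA per cell cannot be told apart, and the part of these markers in the levels of the interferon-stimulated genes was not tested.

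**Figure D4:**
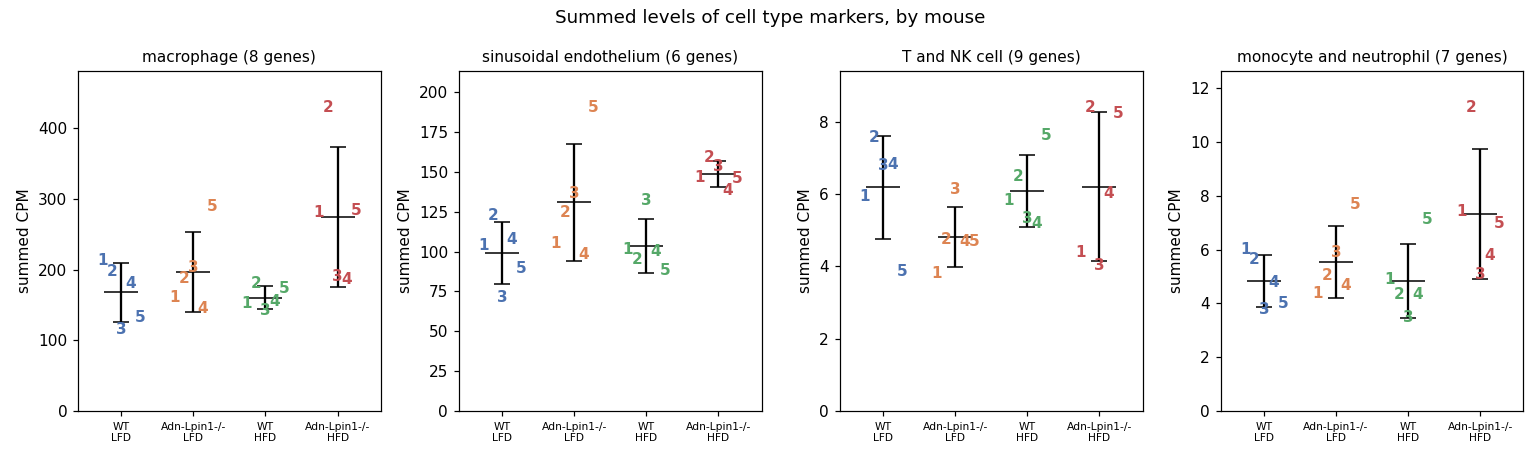
Summed CPM (vertical axis, from 0) of the markers of 4 cell types in each mouse of the 4 groups, each digit being the number of a mouse, with the group mean and SD as a bar. The macrophage sum was highest in mouse 2 of Adn-Lpin1-/- HFD at 430 CPM, and the endothelial sums of the Adn-Lpin1-/- HFD mice all lay above those of the WT HFD mice.

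Lymphoid markers were low. The 9 T and NK cell markers summed to 6.18 ± 1.43 CPM for WT LFD, 4.81 ± 0.831 for Adn-Lpin1-/- LFD, 6.08 ± 0.991 for WT HFD and 6.20 ± 2.06 CPM for Adn-Lpin1-/- HFD, with Cd4 as the most abundant, and 1 of the 9 reached the limit on low counts. The 7 monocyte and neutrophil markers summed to 4.84 ± 0.973, 5.52 ± 1.34, 4.82 ± 1.38 and 7.31 ± 2.41 CPM, of which 2 were tested and Csf3r was called higher on the HFD (0.77 ± 0.22), though not without mouse 2. None of these defining markers had 0 reads in all 20 libraries, though Ly6g had reads in only 11 of them. Of 6 dendritic cell, 4 B cell and 4 cholangiocyte markers, 1, 2 and 4 were tested, and none was called in any comparison.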

How the data were processed

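Liver RNA was sequenced after poly-A selection in 24 libraries, 20 of single mice and 4 of RNA pooled by group. The authors ran STAR 2.5.1a against GRCm38 and deposited the raw count of uniquely aligned reads in 41388 Ensembl release 76 genes, obtained with featureCounts 1.4.6-p5 (versions as in the methods and the submitters' processing notes). The strand setting of the counting is not given in the sources used here. The CPM and RPKM that the authors deposited beside the counts were not used. Groups and replicate numbers came from the sample titles. Gene symbols and gene types came from GENCODE mouse release 21, and gene coordinates from the deposited count files.

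After removal of 355 rRNA genes, a gene was tested if it exceeded 1 CPM in 4 or more single-mouse libraries, which kept 13052. The main analysis used edgeR 4.0.16 (R 4.3.3) with TMM scaling and all 4 groups in 1 fit. Its quasi-likelihood p-values were adjusted by the Benjamini-Hochberg method. Fold changes carry standard errors, and exact permutation tests were two-sided. For the called genes on the LFD their p was 0.0079 for Oas2 and F830016B08Rik, 0.016 for Oasl2, 0.032 for Dhx58 and 0.040 for Oas1a. On the HFD it was 0.0079 for Oas1a and F830016B08Rik, 0.016 for Oas2, 0.024 for Oas3, 0.048 for Oasl2 and 0.056 for Psmb9. For Bst2 with diet it was 0.0079 in both genotypes. The code was tested on simulated counts. Alternatives were DESeq2 1.42.0 (its size factors, and its Wald test), voom with quality weights (limma 3.58.1), the pools as sixth libraries (made from RNA of the same mice, so not independent of them), other limits on low counts (none, and the default of edgeR), a fit restricted to the groups compared, a block for replicate number, removal of the trend with GC content, and leaving out each mouse.

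The 41 genes and the lists of pathway genes and markers were chosen with earlier results of these data known. Values of every mouse are given for each of the 41 genes called in any comparison. One further gene, outside the 41, is not reported here. From the pathway lists, called genes and the most abundant uncalled gene could be named, and not all of them were. Other genes described without a call were picked after their values were seen. Promoters came from RefSeq (GRCm38.p6). Tables and plots were made with Python 3.11.15.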

Additional observations from a re-analysis of the deposited data

Results flagged for a closer look

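In 164 groups of 5 mice (41 genes in 4 groups), 12 held a mouse whose gap to the nearest other mouse was over 0.71 of the whole range of the group, where chance alone would single out about 1 in 20 groups. The 164 share the same mice and are not independent, and the count of 12 was not tested against that rate. Mouse 2 of Adn-Lpin1-/- HFD accounted for 6 of the 12 and was the highest of its group in each. Its levels were 126 CPM for Igtp, 91.0 CPM for Tap1, 68.7 CPM for Irgm1, 24.4 CPM for Gbp3, 21.5 CPM for Zbp1 and 16.7 CPM for Gbp2, while the other 4 mice reached at most 49.97, 50.3, 39.8, 9.72, 10.9 and 5.77 CPM. Its summed macrophage markers were also the highest of the group at 430 CPM, and their part was not tested.

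The other 6 came from 6 mice. In WT LFD, Stat2 was at 61.4 CPM in mouse 5, below 70.8 to 73.5 CPM in the others, and Ifi44 was at 5.06 CPM in mouse 3, above 3.36 to 3.71 CPM. In Adn-Lpin1-/- LFD, Herc6 was at 10.5 CPM in mouse 2, above 8.34 to 8.94 CPM. In WT HFD, Psmb8 was at 25.4 CPM in mouse 2, above 16.4 to 18.6 CPM, and Mx1 was at 2.69 CPM in mouse 5, above 0.934 to 1.44 CPM. Cmpk2 was at 2.30 CPM in mouse 3 of WT HFD, below 3.12 to 3.36 CPM in the others.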

How the results depend on the processing

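F830016B08Rik with genotype on both diets, and Oas2 and Oas3 with genotype on the HFD, kept their calls in all 9 alternatives and with each of the 20 mice left out, and no called gene changed direction in any of them. For genotype on the LFD the count of called genes was 5, and it was 8 with the pools as sixth libraries, 3 with no limit on low counts and 3 with the GC trend removed. For genotype on the HFD it was 6, and 11 with the pools and 3 in a fit of only these groups. For diet in WT it was 1, and 2 with voom, 2 with the pools and 0 with the replicate block (Bst2, adjusted p = 0.051). For diet in Adn-Lpin1-/- it was 1, and 3 with the Wald test of DESeq2, 4 with the pools and 0 in a fit of only these groups. For the comparison of genotype effects it was 0, and 1 with the Wald test of DESeq2. Leaving out single mice gave counts of 1 to 7, 3 to 7, 0 to 1, 0 to 2 and 0 to 0 in the same order. The LFD genotype count fell to 1 without mouse 3 of WT LFD and without mouse 2 of Adn-Lpin1-/- LFD, to 2 when mouse 3 of that knockout group was left out, and to 3 without mouse 1, 2 or 5 in WT LFD and mouse 1 or 5 in Adn-Lpin1-/- LFD. The HFD genotype count fell to 3 when mouse 5 of Adn-Lpin1-/- HFD was left out, and likewise for mice 1, 2 and 3 of WT HFD. The diet count in Adn-Lpin1-/- was 2 without mouse 2 (Irf7 gained) or 3 (Irf1 gained) of the HFD group. The cause of these shifts was not tested, beyond the smaller number of mice in the fits that left some out. The share of all genes called moved as well. From 14.4% for genotype on the LFD it went to 23% with the pools, 4.87% with no limit on low counts, 12.7% with the GC trend removed and 9.27% to 15% with single mice left out. From 18.6% for genotype on the HFD it went to 28.8% with the pools, 15.2% in a fit of only these groups and 11.3% to 21.1% with single mice left out. For diet, single mice left out gave 0.421% to 2.21% in WT and 0.942% to 2.9% in Adn-Lpin1-/-. The pools gave 5.22% and 7.3% in the same order, and no limit on low counts 0.376% and 0.787%. The Wald test of DESeq2 gave 3.06% and 4.42%, and a fit of only the groups compared 0.552% and 1.23%. In WT voom gave 5.13% and the block 0.69%, and in Adn-Lpin1-/- the default limit of edgeR gave 1.54%. With the replicate block the genotype counts were 5 and 5, where Dhx58 on the LFD and Oasl2 and Oas1a on the HFD lost their calls and Ddx60 gained one on each diet. Same-numbered mice did not deviate together on average (mean r -0.02 over 30 pairs, from -0.42 to 0.28, 6 of them over 0.1). The sample titles give only the number, and whether some same-numbered mice shared anything else was not tested. The comparison of genotype effects needs all 4 groups, so no fit of fewer groups was run. The interferon genes themselves had too few reads to be tested, and low expression and limited depth cannot be told apart there.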

Other observations

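Other mice were also often the highest or the lowest of their group across the 41 genes. Mouse 3 of Adn-Lpin1-/- LFD was the highest of its group in 22 of the 41 genes (53.7%, against 15.7% of all genes tested). Mouse 5 of WT LFD was the highest in 18 (43.9%, against 26.3%) but also the lowest in 11, so it stood at both ends. Mouse 4 of Adn-Lpin1-/- LFD and mouse 4 of Adn-Lpin1-/- HFD were each the lowest in 22 genes and the highest in 0, and mouse 3 of WT HFD was the lowest in 18 and the highest in 0. The median deviation of the 41 genes from the mean of the 20 mice, on the log2 scale, ran from -0.25 in mouse 4 to 0.57 in mouse 2 of Adn-Lpin1-/- HFD, and from -0.17 to 0.02 among the WT HFD mice.

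The pooled library of a group lay within the range of its 5 mice for 33 of the 41 genes for WT LFD, 38 for Adn-Lpin1-/- LFD, 37 for WT HFD and all 41 for Adn-Lpin1-/- HFD. Trex1, an exonuclease that limits the sensing of cytosolic DNA, had 0 reads in all 20 libraries. The strand setting of the counting is not given, and whether its reads were lost to an overlapping gene was not tested.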
